A study of Mus musculus with 6 samples.

Results

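The semaphorins, plexins and neuropilins were examined in the developing midbrain of Lmx1b conditional knock-out (cKO) and control mouse embryos at E14.5. All protein-coding genes of the deposited table whose identifier belongs to a semaphorin of classes 3 to 7, a plexin or a neuropilin in the GRCm38 annotation were taken, with no use of measured values, and this gave 31 of the 26852 genes in the table. They comprised 20 semaphorins (7 of class 3, 6 of class 4, 2 of class 5, 4 of class 6 and 1 of class 7), 9 plexins (4 of class A, 3 of class B, 1 of class C and 1 of class D) and 2 neuropilins.

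The cKO embryos were Lmx1b fl/fl;Pitx3-Cre and the control embryos Lmx1b wt/wt;Pitx3-Cre, all on a C57Bl/6 background. Both genotypes carried the Cre, which is driven from the Pitx3 locus and takes the place of 1 Pitx3 allele. Cre acts only in Pitx3-positive neurons, the post-mitotic dopamine neurons of the midbrain, shortly before the stage studied, while the dissected midbrain holds many other cells. RNA of 3 samples per genotype was sequenced, each from pooled embryos, with embryos drawn from several litters.

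Semaphorins are guidance cues that steer growing axons and migrating cells, and plexins are their main receptors. Class 3 semaphorins are secreted and most of them need a neuropilin as the ligand-binding part of a receptor complex with a class A plexin. Semaphorins of classes 4, 5 and 6 span the membrane and class 7 is held to it by a lipid anchor. Class 4 members mostly bind class B plexins, class 6 members bind class A plexins, Sema7a binds Plxnc1 and Sema3e binds Plxnd1 without a neuropilin. In the midbrain these cues are known for guiding the axons of dopamine neurons towards the forebrain and for shaping the paths of other midbrain neurons.

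Levels are given as normalized read counts, which are reads per gene divided by a size factor of the library. The table holds only the mean of each genotype, and the counts of the single libraries were recovered from the digits of these means. The libraries recovered in this way are called a, b and c within a genotype. They carry the genotype but not the sample number. Recovered reads on genes ranged from 27717519 to 33540763 per library, and the solution covered 99.9% of the genes, among them all 31 genes of the families.

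Lmx1b, the targeted gene, had 1257, 1401 and 1455 normalized counts in cKO and 1368, 1352 and 1474 in control (unadjusted limma p above 0.05), so its total over all exons and cells did not check the labels. Markers of the midbrain and of dopamine neurons were present in every library. Pitx3 had 111, 162 and 150.4 normalized counts in cKO and 177, 179.6 and 198 in control, Th had 745, 733 and 778 and 776, 789.6 and 976, En1 had 939.7, 1058 and 1147 and 1277, 1326 and 1540.2, and Otx2 had 1736, 1805 and 1863 and 1808, 1725 and 1613. Of 8 listed dopamine neuron genes 2 had an unadjusted limma p under 0.05, Pitx3 and Ddc, and of 6 listed midbrain genes 2 did, En1 and En2, all 4 lower in cKO, against 2.75% of all genes tested. In the other lists 2 of 7 progenitor genes did, Fabp7 and Hes5, both lower, 1 of 4 tested forebrain genes, Emx2, and 1 of 9 tested bone and mesenchyme genes, Col3a1, both higher, and 0 of the tested endothelial, pericyte, microglial, oligodendrocyte lineage and neuronal genes, with all adjusted p above 0.05. Of 5 listed neuronal genes only 2, Stmn2 and Rbfox3, had recovered counts and were tested. The summed level of 5 listed hindbrain Hox genes, of which 4 had recovered counts, did not exceed 6.34 normalized counts in any library. One library stood apart in its markers, as 10 bone and mesenchyme genes summed to 13873 normalized counts in cKO c, 2063 in cKO a and 498 to 583 in the other libraries, with all 10 highest in cKO c. Their part in the results below was not tested. Without cKO c the log2 fold change of 8 members took the other sign and none of these had a limma p under 0.05, at -0.0083 for Plxna4, -0.037 for Plxnb1, -0.0047 for Plxnc1, -0.00028 for Sema3c, 0.10 for Sema3e, 0.011 for Sema3g, 0.0028 for Sema6d and 0.065 for Sema7a. In bulk samples like these, fewer cells of a type and less RNA per cell cannot be told apart.

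Within families of related genes, reads that match more than 1 gene could be lost or shared, so the transcripts of the 31 genes (GENCODE M21, GRCm38) were compared with each other. Of 465 pairs, 78 shared an identical stretch of at least 20 bases and 28 did so within coding sequence. In most pairs without a coding match the longest stretch was a simple sequence repeat. The longest identical stretch of any pair was 48 bases, in Sema5a and Sema5b, whose longest coding stretch was 20 bases. The longest in coding sequence was 33 bases, in Plxna1 and Plxna4, 2 class A receptors. It is shown with 15 flanking bases, because it is the longest coding match between members. Capitals mark the shared bases, at chr6:89324622-89324654 (minus strand, Plxna1, a coding exon) and chr6:32181870-32181902 (minus strand, Plxna4, a coding exon).
Plxna1: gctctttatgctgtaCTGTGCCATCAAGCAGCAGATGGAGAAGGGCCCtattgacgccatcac
Plxna4: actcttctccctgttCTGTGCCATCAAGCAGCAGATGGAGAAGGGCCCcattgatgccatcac

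A second pair joins receptors of different classes, Plxna4 and Plxnb1, whose longest shared coding stretch of 32 bases runs over an exon junction in both genes. The spliced sequence is shown as the longest coding match between members of different classes, with the shared bases in capitals, and in Plxna4 it lies late in the coding sequence, at chr6:32162151-32163402 with the intron included (minus strand), while in Plxnb1 it lies at chr9:109114418-109114605 (plus strand).
Plxna4: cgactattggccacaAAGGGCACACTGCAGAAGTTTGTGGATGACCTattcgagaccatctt
Plxnb1: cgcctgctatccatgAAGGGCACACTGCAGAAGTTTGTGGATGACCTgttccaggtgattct

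Among the ligands the longest coding stretch was shorter. Sema3b and Sema3c, secreted class 3 ligands, shared 26 coding bases, at chr9:107600991-107601016 on the minus strand and chr5:17694677-17694702 on the plus strand. Over whole transcripts the longest stretch shared by Sema3a and Sema3d was 43 bases, a simple sequence repeat. Sema3a and Sema3d, which lie next to each other on chromosome 5, shared 23 coding bases, shown in capitals and located at chr5:13581091-13581113 and chr5:12571073-12571095, both on the plus strand.
Sema3b: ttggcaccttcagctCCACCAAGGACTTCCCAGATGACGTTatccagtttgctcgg
Sema3c: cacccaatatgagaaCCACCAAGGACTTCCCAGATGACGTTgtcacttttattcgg
Sema3a: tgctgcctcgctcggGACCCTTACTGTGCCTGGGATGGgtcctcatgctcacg
Sema3d: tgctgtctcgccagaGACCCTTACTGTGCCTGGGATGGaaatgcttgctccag

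Each stretch was extended as far as both genes match, so the bases next to the capitals differ by definition. Read length is not given in the sources used here, so whether reads were shared between members was not settled. Exons of 4 members overlap a gene on the other strand, and whether the counting used strand is not given in the sources used here, so reads of the 2 genes cannot be told apart there. These are Plxna1 (970 bases, 10.7% of its exon length, shared with Gm26811), Sema4c (334 bases, 7.27%, with D430040D24Rik), Plxnb1 (257 bases with Gm7628) and Plxna4 (110 bases with Plxna4os3).

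The first question was which of these cues and receptors the midbrain expressed. All 31 genes had reads in every library. To compare genes, the normalized count was divided by the length of the merged exons in kb. Over all 6 libraries the mean level per kb ranged from 1.79 for Plxnb3 to 1844 for Plxna1, with Plxna1, Plxna3, Plxnb2, Sema6c and Plxnb1 at the top. Plexins and semaphorins summed to similar levels, with a ratio of plexin to semaphorin counts per kb of 0.929 to 0.989 in the 6 libraries. With the length of the longest annotated transcript the mean sums were further apart, 7282 per kb for plexins and 9263 for semaphorins.

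**Figure D1:**
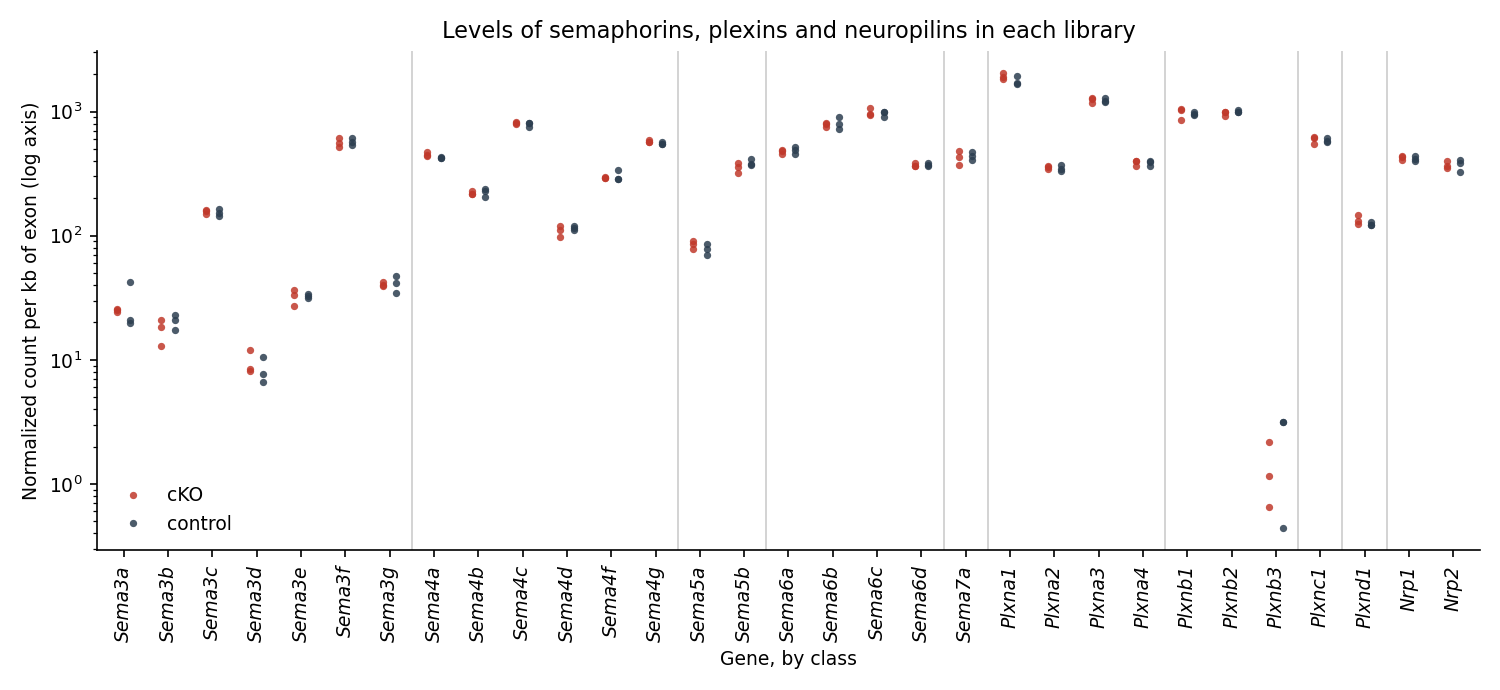
Normalized count per kb of merged exon (log axis) of the 31 genes, grouped by class, with 1 point for each library and the 3 cKO libraries left of the 3 control libraries. Class 3 semaphorins other than Sema3f and Sema3c average 41.0 per kb or less, Plxnb3 lies lowest at 0.444 to 3.16 per kb, and the points of the genotypes lie on top of each other for most genes.

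In the order of levels, several neighbours could not be ranked. Plxna1 was above Plxna3 in every library, and Plxna3 above every library of the next gene. Plxnb2 at 985, Sema6c at 973 and Plxnb1 at 969.7 per kb overlapped in their ranges over libraries. The next were Sema4c at 799.8 and Sema6b at 799 per kb, which overlapped each other, followed by Plxnc1, Sema3f and Sema4g at 592, 570.2 and 564 per kb, which overlapped as well. From Sema6a at 483 down to Sema4f at 298 per kb, each of 10 genes overlapped the next in the order. Below them Sema4b had 222 per kb, Sema3c 154, Plxnd1 129, Sema4d 112 and Sema5a 81.1 per kb, where only Sema3c and Plxnd1 overlapped. The lowest were Sema3g at 41.0, Sema3e at 32.6, Sema3a at 26.4 and Sema3b at 18.9 per kb, each overlapping the next, and then Sema3d at 8.90 and Plxnb3. The order depended on the length used. With the length of the longest annotated transcript Nrp1 moved from 423 to 1134 per kb, from rank 14 to rank 4, since its merged exons span 9785 bases and its longest transcript 3645.

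Expression by class followed from these levels. Class 6 semaphorins made up 38.1 to 39.2% of all semaphorin counts per kb in the 6 libraries, class 4 made up 35.0 to 36.8%, class 3 made up 11.7 to 13.0%, class 5 made up 6.04 to 7.28% and Sema7a 5.57 to 7.08%. With the longest transcript in place of merged exons the order of the largest classes turned, to 3652 per kb for class 4 and 3212 for class 6. Membrane-bound ligands outweighed the secreted ones in every library. Among the receptors class A plexins held 57.3 to 60.8% of plexin counts per kb, class B 27.3 to 31.3%, Plxnc1 8.30 to 9.60% and Plxnd1 1.85 to 2.23%.

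**Figure D2:**
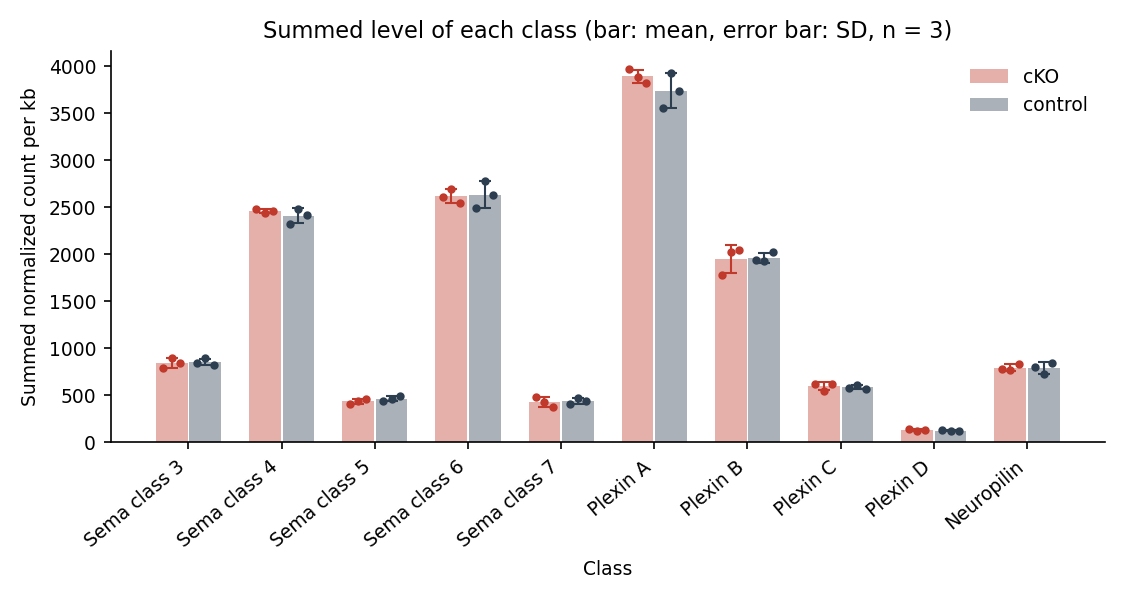
Summed normalized count per kb for each class, where bars are the mean of 3 libraries, error bars the SD and points the libraries. The bars of cKO and control lie close for every class, for example 2621 ± 76.2 in cKO and 2636 ± 142 in control for class 6 and 3893 ± 71.4 in cKO and 3742 ± 184 in control for class A plexins.

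The second question was whether removal of Lmx1b from Pitx3-positive neurons altered the levels of these cues and receptors. None of the 31 genes reached an unadjusted p under 0.05 with limma and voom weights, a moderated linear model fitted across 17147 genes, and the smallest p was 0.0896. The count was also 0 by limma-trend, the other tool run. Over all genes tested 2.75% had such a p, 1.6% lower and 1.15% higher in cKO, and 0.408% had a p under 0.01. By limma 0 genes had a Benjamini-Hochberg adjusted p under 0.05, with 472 at an unadjusted p under 0.05, so the fit called no gene at that level anywhere. Of the 31 genes 15 had a higher and 16 a lower fitted level in cKO. The median size of the log2 fold change was 0.034 for the 31 genes and 0.067 for all genes tested, and for genes with a mean above 1000 normalized counts it was 0.029 over 23 family members and 0.035 over 6904 genes.

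The intervals give the size of change that these data allow. For 21 of the 31 genes the 95% interval of the fold change lay within 1.2-fold in either direction, for 27 within 1.5-fold and for 30 within 2-fold. The genes beyond 1.5-fold were Sema3a, Sema3b, Sema3d and Plxnb3, with means of 366 normalized counts or less, and those between were Sema3e, Sema3g, Sema4d, Sema5a, Sema5b and Plxnd1. These are intervals for the whole dissected midbrain, of which the Pitx3-positive neurons are only a part.

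**Figure D3:**
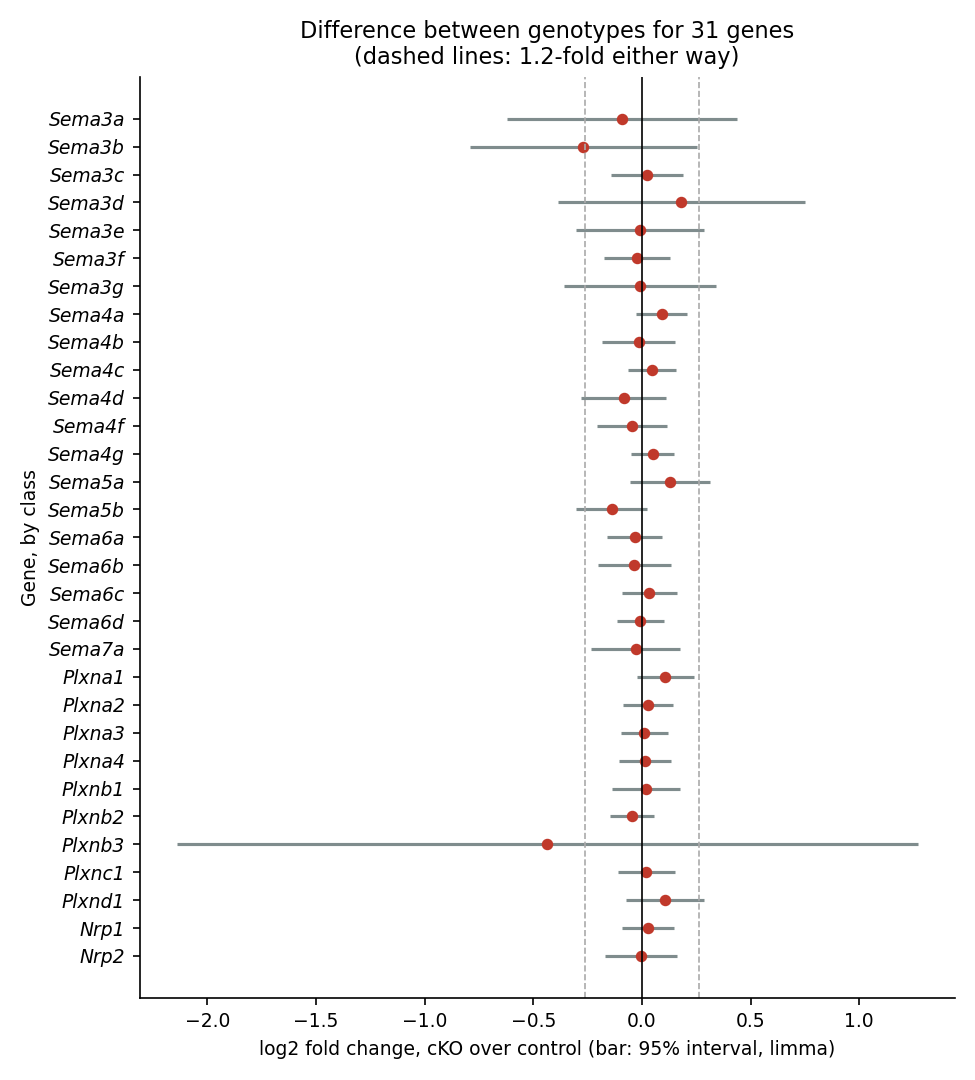
Log2 fold change of cKO over control for the 31 genes from the limma fit, with points for the estimate, bars for the 95% interval and dashed lines at 1.2-fold in either direction. All intervals cross 0, and that of Plxnb3, from -2.14 to 1.27, is the widest.

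Among the secreted class 3 ligands, Sema3f, a repellent that acts mainly through Nrp2, was the most abundant and held 63.7 to 69.1% of the class per kb. It had 2718, 3186 and 2923 normalized counts in cKO and 2804, 3172 and 2977 in control. The groups overlapped, with cKO a lowest and cKO b highest, and the log2 fold change was -0.023 ± 0.069 (SE, 3 libraries per genotype, exact permutation p = 0.8). Sema3c, which can attract axons of midbrain dopamine neurons, followed with 1025 to 1163 normalized counts and a log2 fold change of 0.024 ± 0.075.

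Sema3a, the founding repellent of the class and a ligand of Nrp1, was low and uneven. It had 349, 353 and 336 normalized counts in cKO and 592, 290.1 and 275 in control. Control a was far above all other libraries, which lay close together between 275 and 353. The log2 fold change was -0.094 ± 0.24 with all libraries and 0.29 without control a (unadjusted limma p under 0.05, adjusted p above it), so the direction of Sema3a rested on 1 library.

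Sema3d, a class 3 ligand of low level here, had 70.3, 71.9 and 103 normalized counts in cKO and 66.4, 90.3 and 57.2 in control. It was highest in cKO c, the library with the highest bone and mesenchyme genes, and its log2 fold change of 0.18 ± 0.26 was 0.013 without that library, 0.053 without control c and 0.36 without control b. Sema3b had 61.8 to 101 normalized counts in cKO and 83.2 to 109.5 in control, with overlap and a log2 fold change of -0.27 ± 0.24 (exact permutation p = 0.5), which was -0.054 without cKO a and -0.42 without cKO c. Sema3e, the neuropilin-independent ligand of Plxnd1, spanned 253 to 342 and Sema3g 156 to 214 normalized counts, with log2 fold changes of -0.0096 ± 0.14 and -0.0092 ± 0.16. Over the class, 2 genes were higher and 5 lower in cKO, with a median log2 fold change of -0.0096 against 0.0012 over all genes tested.

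Some class 3 genes lie close together. On chromosome 5 of GRCm38, Sema3d (chr5:12383385-12588948), Sema3a (chr5:13125414-13602565) and Sema3e (chr5:14025276-14256689) follow each other with gaps of 0.536 and 0.423 Mb, and all 3 were at or below 32.6 per kb. Sema3c lies 3.32 Mb further on (chr5:17574281-17730268) at 154 per kb. On chromosome 9, Sema3b (chr9:107597674-107609229) and Sema3f (chr9:107681500-107710475) are 0.0723 Mb apart and differed the most of these neighbours, with 18.9 and 570.2 per kb.

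Class 4 held the only gene of the families whose libraries did not overlap between genotypes. Sema4a (ENSMUSG00000028064, chr3:88435959-88461182, minus strand), a transmembrane ligand that binds plexins of classes B and D, had 2537, 2387 and 2416 normalized counts in cKO and 2282, 2348 and 2266 in control. Every cKO library was above every control library, by a small margin, since the lowest cKO library was 2387 and the highest control library 2348. The means were 2447 ± 79.7 in cKO and 2299 ± 43.4 in control (SD, n = 3 libraries), the log2 fold change was 0.091 ± 0.054 with an interval of -0.028 to 0.21, and its unadjusted p in the limma fit was above 0.05. The exact permutation test (two-sided) gave p = 0.1, which is the smallest that 3 against 3 allows. One of 31 genes is 3.23%, below the 7.56% of all genes tested whose libraries did not overlap (3.87% with cKO higher), so a gene of this kind among 31 is not a result about the families.

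Sema4c, a ligand of Plxnb2, had the highest level per kb of merged exon of the class, while with the longest transcript Sema4g was above it, at 1072 against 944 per kb. Sema4c had 3738, 3796 and 3652 normalized counts in cKO and 3473, 3695 and 3686 in control, overlapping, with a log2 fold change of 0.045 ± 0.050 (exact permutation p = 0.3). Sema4g spanned 4714 to 5079 normalized counts and differed by 0.048 ± 0.046 on the log2 scale. Sema4b, Sema4d, the classical ligand of Plxnb1, and Sema4f spanned 1148 to 1346, 745 to 915 and 1516 to 1780.0 normalized counts, with log2 fold changes of -0.014, -0.084 and -0.045. That of Sema4d was -0.0045 without cKO b and -0.15 without cKO a. In the class 3 genes were higher and 3 lower in cKO.

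The class 5 pair, transmembrane ligands with thrombospondin repeats, had log2 fold changes of opposite sign. Sema5b (ENSMUSG00000052133, chr16:35541145-35664732, plus strand) had 2256, 2545 and 2724 normalized counts in cKO and 2641, 2663 and 2965 in control. Its libraries overlapped through cKO c, which lay above control a and b, and the log2 fold change was -0.14 ± 0.075 (exact permutation p = 0.3), with the smallest limma p of the families. Sema5a (ENSMUSG00000022231, chr15:32244810-32696341, plus strand) had 1699.5, 1589 and 1449 normalized counts in cKO and 1317, 1588 and 1447 in control, with cKO a highest and control a lowest, and a log2 fold change of 0.13 ± 0.084 (exact permutation p = 0.2). Neither passed with all libraries. Without cKO c Sema5b was at -0.20, and without control b Sema5a was at 0.20, and each then had an unadjusted limma p under 0.05 but an adjusted p above it. Leaving out other libraries moved them the other way, to -0.061 for Sema5b without cKO a and to 0.057 for Sema5a without control a.

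**Figure D4:**
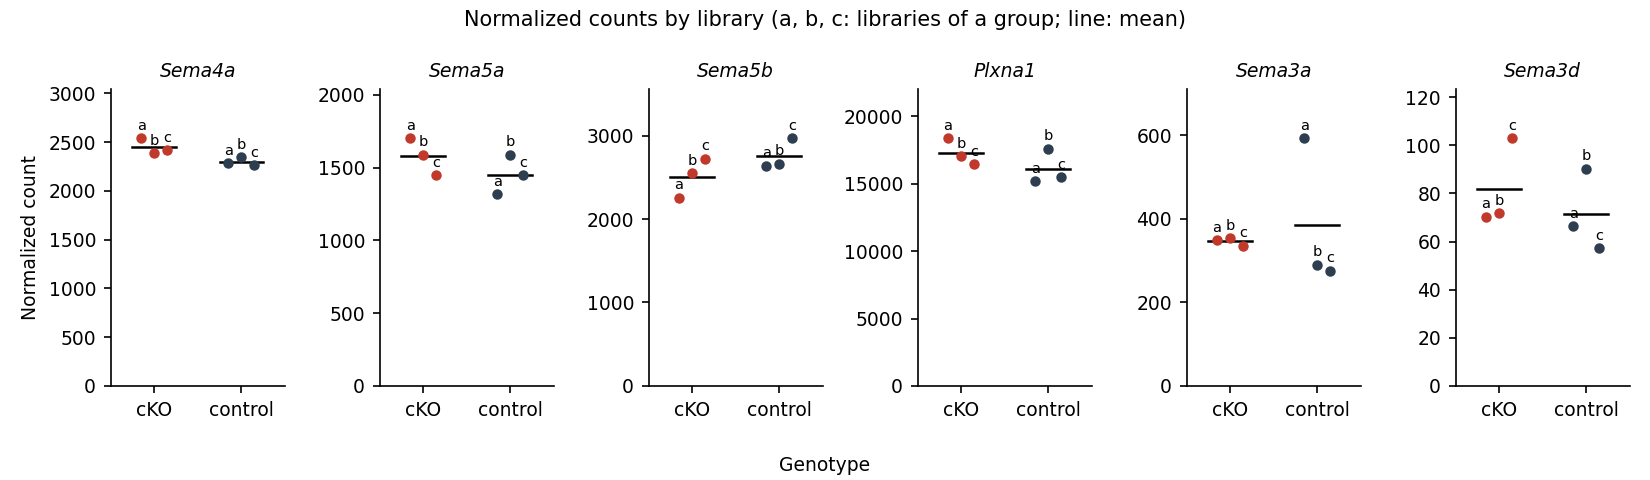
Normalized counts of 6 genes in each library (a, b and c name the libraries of a genotype, lines are means, axes start at 0). Sema4a separates by genotype by a narrow margin, control a stands at 592 for Sema3a against 275 to 353 elsewhere, and cKO c is highest for Sema3d at 103.

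Class 6 signals in part through class A plexins. Sema6c led with 5601, 6287 and 5642 normalized counts in cKO and 5408, 5852 and 5876 in control. The libraries overlapped, with cKO b highest and control a lowest (log2 fold change 0.032 ± 0.058, exact permutation p = 0.8). Sema6d, a ligand of Plxna1, was among the steadiest genes at 3861 to 4087 normalized counts and -0.0081 ± 0.049. Sema6a, a ligand of Plxna2 and Plxna4, spanned 3995 to 4556 and Sema6b 2884 to 3598 normalized counts, with log2 fold changes of -0.034 ± 0.058 and -0.035 ± 0.076. Sema7a, which also binds integrins, had 1583, 1429 and 1229.6 normalized counts in cKO and 1339.5, 1546 and 1451 in control. Both its highest and its lowest library were cKO libraries, and the log2 fold change was -0.029 ± 0.093 (exact permutation p = 0.9).

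Among the receptors, Plxna1 (ENSMUSG00000030084, chr6:89316314-89362620, minus strand), a class A receptor for class 3 and class 6 ligands, had the highest level of all 31 genes. It had 18360.4, 17047 and 16478 normalized counts in cKO and 15185, 17596 and 15513 in control. Control a and c lay below all cKO libraries, and control b lay above cKO b and c, so that the groups overlapped. The log2 fold change was 0.11 ± 0.060 with an interval of -0.024 to 0.24 (exact permutation p = 0.3), and leaving out single libraries gave 0.061 (without cKO a) to 0.17 (without control b, unadjusted limma p under 0.05, adjusted p above it). Counts of Plxna1 carry more uncertainty than those of the other members. Besides the shared antisense exons, its summed level exceeded 30000 normalized counts, above which the recovery searched only libraries within 2-fold of the group mean, and 4.33% of decoy means of its size also gave an answer.

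The other class A plexins differed less. Plxna2 had 5673 to 6359, Plxna3 9315 to 10143 and Plxna4 5139 to 5662 normalized counts over the 6 libraries. Their log2 fold changes were 0.028 ± 0.052, 0.011 ± 0.049 and 0.015 ± 0.055, with exact permutation p between 0.6 and 1. All 4 class A plexins had a positive fold change, none passed, and leaving out 1 library turned the sign of Plxna2, Plxna3 and Plxna4 but not of Plxna1.

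In class B, Plxnb2, a receptor for Sema4c, had 7170.1, 7664 and 7637 normalized counts in cKO and 7626, 7598 and 7947 in control. The library cKO a was lowest and the other cKO libraries lay among the controls, with a log2 fold change of -0.045 ± 0.046 (exact permutation p = 0.6). Plxnb1, the receptor of Sema4d, had 8167, 9885 and 10129.8 in cKO and 9103, 9037 and 9488 in control, with cKO a below all others. Its log2 fold change of 0.020 ± 0.071 became 0.12 without cKO a (unadjusted limma p under 0.05, adjusted p above it). Plxnb3 was close to the limit of detection, with 15, 4 and 7 reads in cKO and 23, 3 and 19 in control. Its interval ran from 0.227- to 2.41-fold of control, with a log2 fold change of -0.44 ± 0.78, and leaving out single libraries gave -0.040 (without cKO b) to -1.3 (without control b, unadjusted limma p under 0.05, adjusted p above it). Plxnb3 lies 0.557 Mb from Plxna3 on the X chromosome, which had 1235 per kb.

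Plxnc1, the receptor of Sema7a, had 5228, 4563 and 5153 normalized counts in cKO and 4830.0, 5112 and 4780.4 in control. The lowest and the highest library were both cKO (log2 fold change 0.020 ± 0.060, exact permutation p = 0.8). Plxnd1, the receptor of Sema3e that is best known from blood vessels, had 1062, 902 and 968 in cKO and 943, 890.5 and 888 in control, with a log2 fold change of 0.11 ± 0.082 (exact permutation p = 0.2). Here cKO a was highest and cKO b lay among the controls, and the log2 fold change was 0.041 without cKO a and 0.16 without cKO b. Endothelial markers, 9 genes, summed to 5867 to 6491 normalized counts over the 6 libraries, and 0 of them had a limma p under 0.05.

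The neuropilins did not separate by genotype. Nrp1, the binding receptor of Sema3a and a receptor of VEGF, had 4224, 3985 and 4312 normalized counts in cKO and 4088, 3898 and 4299.7 in control, and Nrp2, which prefers Sema3f, had 4121, 4352 and 4696 and 4541, 3896 and 4801. In both genes the lowest library was control b. Log2 fold changes were 0.029 ± 0.055 and -0.0042 ± 0.076 (exact permutation p = 0.6 and 1), and the ratio of Nrp1 to Nrp2 per kb was 1.08 to 1.24 in the 6 libraries. With the longest transcript the mean levels were further apart, 1134 per kb for Nrp1 and 655 for Nrp2. The spread over libraries of Nrp2 was larger than the difference between the genotypes.

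Across the families the highest and lowest values were spread over the libraries. Of the 31 genes, cKO a was highest for 7 and lowest for 6, cKO b for 3 and 3, cKO c for 5 and 3, control a for 2 and 9, control b for 8 and 3, and control c for 6 and 7. Within groups the median SD on the log2 scale was 0.095 for the families and 0.13 for all genes tested, and for genes with a mean above 1000 normalized counts it was 0.081 and 0.072.

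Genes that act with these receptors were listed as well, 52 in all, among them Rnd and Mical proteins that work inside the cell with plexins, the collapsin response mediators and L1 family co-receptors. Of these 50 were tested, 28 had a higher and 22 a lower fitted level in cKO, and 1 had an unadjusted p under 0.05, which is 2.00% of them against 2.75% of all genes tested. Dpysl3 and Cd72 were not tested, the first because its counts were not recovered and the second because its mean was under 10. The gene that passed was Rnd3, a small GTPase that lacks GTP hydrolysis. Rnd3 had 5707, 8378 and 6279.8 normalized counts in cKO and 9648, 7292 and 8126 in control, so that cKO b lay above 2 control libraries and the groups overlapped. Its log2 fold change was -0.31 ± 0.13 (adjusted p = 1.00, limma), and the unadjusted p rose above 0.05 when any of cKO a, cKO c, control a or control c was left out. Leaving out single libraries gave a log2 fold change of -0.48 (without cKO b) to -0.20 (without cKO a). Libraries did not overlap for 3 of the 50 genes, Arhgef12, an exchange factor bound by class B plexins, Gsk3b and Pak1, with log2 fold changes of 0.074, 0.045 and 0.046, against 7.56% of all genes tested. Arhgef12 and Gsk3b, with means of 10743 and 12167 normalized counts, lie where 4.33% of decoy means also gave an answer. For those of the 50 genes with means above 20000, 43.7% of decoy means did, so their counts are less certain.

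The promoters were read for letters that bear on transcription factors, as Lmx1b is a LIM homeodomain factor and many homeodomain proteins bind TAAT cores. RefSeq windows were present for 26 of the 31 genes (37 windows, the 250 bases before each start, GRCm38), and Plxna1, Plxna4, Sema3b, Sema3f and Sema6a had none. The motif TAATTA, on both strands, was found in 0 of 37 windows, against 4.84% of 32851 windows of all genes. The motif TATAAA, on both strands, was found in 0 of 37 as well, against 12.4% of all windows. The letters of neither motif contain the other. The windows of the families had a median GC content of 64.0% and 13 CpG, against 52.4% and 6 for all promoters. These are descriptions of short windows and say nothing on whether a factor binds.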

How the data were processed

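Total RNA of dissected E14.5 midbrains was isolated with Trizol in 3 cKO and 3 control samples. According to the study's methods and the submitters' processing notes, paired-end reads were mapped on GRCm38.p4 (TopHat 1.0.14, Bowtie2 2.1.0), counted (HTSeq 0.6.1p1) and normalized and tested with DESeq2 according to the methods or DESeq 1.10.1 according to the notes (which of these made the table was not settled here). The authors deposited 1 table with the mean signal per gene over all libraries and over each genotype, as read counts divided by a size factor per library and averaged. Their ratio, log2 ratio and p-value columns hold the authors' own comparison and were not used. Rows naming no gene (3) held 31.8% of the mean counts and were left out.

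As a gene's mean is a sum of whole reads divided by fixed factors and is given to 15 digits, size factors and counts of the 6 libraries were solved from the digits. A single answer was found for 26822 of 26852 genes (99.9%), holding 93.3% of gene counts, and size factors recomputed from these counts differed by at most 0.00781%. Decoy means gave an answer in 0% of cases up to 5000 normalized counts, in 0.667% from 5000 to 10000, in 4.33% from 10000 to 20000 and in 43.7% above. The headers number the libraries of each genotype, but the solved libraries cannot be tied to these numbers, so they were lettered by falling size factor. They count as 3 replicates per genotype, and p-values measure the spread between these pools. The procedure and the fit were tested on simulated data.

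Counts were fitted with limma 3.58.1 (voom weights, the recovered size factors, R 4.3.3) for 17147 genes with a mean of at least 10, with Benjamini-Hochberg adjustment over all of them. Single genes were also compared by an exact permutation test. Gene positions and exons came from GENCODE M21 (GRCm38), matched for 26693 table entries, and promoters from RefSeq. Every member of the families is named, and values per library are given for those whose libraries do not overlap, for the highest per kb in each class and for some others chosen after their values were seen. Pathway genes are named where p was under 0.05, and those with non-overlapping libraries were named after their values were seen. The members, lists and tests were chosen with earlier results of these data known. Alternatives were a minimum mean of 100 or none, recomputed size factors, library totals, limma-trend (pseudocount 0.5), a threshold of 0.01, the longest transcript length and leaving out each library.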

Additional observations from a re-analysis of the deposited data

How the results depend on the processing

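No paired analysis was possible because the recovered libraries cannot be tied to the replicate numbers. No member of the families had an unadjusted p under 0.05 with a minimum mean of 100 (28 members tested), without a minimum, with recomputed size factors, library totals or limma-trend, and signs were kept in all these fits except that Sema3g was at 0.00068 on the log2 scale in limma-trend. With the length of the longest transcript the summed levels per kb were 1789 for neuropilins, 4220.3 for class A plexins, 2248 for class B plexins, 677 for Plxnc1, 1259 for semaphorin class 3, 3652 for semaphorin class 4, 707 for semaphorin class 5, 3212 for semaphorin class 6, 9263 for all semaphorins, 7282 for all plexins, 18334 for all 31 genes. When single libraries were left out, members with p under 0.05 numbered 0 to 3, pathway genes with p under 0.05 numbered 0 to 3, and 0 members had an adjusted p under 0.05, while over all genes 1.96 to 3.79% had such an unadjusted p and adjusted calls numbered 0 to 4. The 3 members were Plxna1, Plxnb3 and Sema5a, without control b, where the share over all genes was 3.45%. Median log2 fold changes of all classes with more than 1 member then took both signs, from -0.048 to 0.060 for neuropilins, -0.013 to 0.055 for class A plexins, -0.059 to 0.0086 for class B plexins, -0.039 to 0.019 for semaphorin class 3, -0.035 to 0.041 for semaphorin class 4, -0.056 to 0.022 for semaphorin class 5 and -0.037 to 0.030 for semaphorin class 6. Log2 fold changes of the members whose sign turned ranged from -0.0058 to 0.063 for Nrp1, -0.091 to 0.057 for Nrp2, -0.011 to 0.074 for Plxna2, -0.015 to 0.046 for Plxna3, -0.024 to 0.060 for Plxna4, -0.037 to 0.12 for Plxnb1, -0.017 to 0.081 for Plxnc1, -0.28 to 0.29 for Sema3a, -0.017 to 0.074 for Sema3c, -0.11 to 0.10 for Sema3e, -0.081 to 0.035 for Sema3f, -0.12 to 0.092 for Sema3g, -0.085 to 0.037 for Sema4b, -0.088 to 0.033 for Sema4f, -0.082 to 0.010 for Sema6a, -0.11 to 0.050 for Sema6b, -0.021 to 0.063 for Sema6c, -0.030 to 0.016 for Sema6d, -0.12 to 0.065 for Sema7a. Fold changes of the other 12 members kept their sign in each of these fits that tested them, where Plxnb3 fell under the minimum mean without control a or control c. They ranged from 0.061 to 0.17 for Plxna1, -0.062 to -0.013 for Plxnb2, -1.32 to -0.040 for Plxnb3, 0.041 to 0.16 for Plxnd1, -0.42 to -0.054 for Sema3b, 0.013 to 0.36 for Sema3d, 0.063 to 0.11 for Sema4a, 0.015 to 0.061 for Sema4c, -0.15 to -0.0045 for Sema4d, 0.032 to 0.065 for Sema4g, 0.057 to 0.20 for Sema5a and -0.20 to -0.061 for Sema5b. Depth limits the 3 members with means under 100 normalized counts, Sema3b, Sema3d and Plxnb3, the last at 3 to 23 reads per library.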
